A study of Mus musculus with 36 samples.

Results

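Of the 55492 rows of the counts table, 10 were genes of the mTOR pathway that carry the symbols Ddit4, Ddit4l, Sesn1, Sesn3, Deptor, Mtor, Rptor, Rictor, Tsc1 and Tsc2 in GENCODE, and these 10 were described across the 3 treatments and the 2 batches of the study. They were picked out by symbol, with earlier results of these data known. Each symbol matched 1 row, and all 10 were among the genes whose mean count over the libraries was above 5. The samples were RNAseq libraries of dissociated mouse cortical cells (C57EDCX, a commercial preparation from embryonic day 18), which all groups share, grown for 10 days before treatment. For 72 h, 12 control cultures received fresh medium, 12 received 1 µM DEX (dexamethasone, a glucocorticoid receptor agonist) and 12 received 1 µM DEX with 1 µM RU-486 (mifepristone, an antagonist of the same receptor). Each batch held 6 libraries of each group, numbered 1 to 18 in batch 1 and 19 to 36 in batch 2. The labels do not say whether the 6 libraries of a group came from separate preparations of cells, so the p-values measure the spread between these libraries, which may be technical.

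The protein kinase mTOR integrates growth factor, energy and amino acid signals and drives protein synthesis, ribosome production and cell growth. It works in complex 1, which contains Raptor (Rptor), and in complex 2, which contains Rictor, and Deptor is an inhibitory partner of both. Complex 1 is switched on by the small GTPase Rheb, which the complex of TSC1 and TSC2 keeps inactive. REDD1 (Ddit4) and its relative REDD2 (Ddit4l) act through TSC1 and TSC2 to restrain complex 1, and the sestrins (Sesn1, Sesn3) restrain it through AMPK and through the GATOR proteins that sense amino acids. Ddit4 is a textbook target of the glucocorticoid receptor, and in neurons mTOR signalling is known for its part in dendrite growth and local translation.

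All 10 genes are protein coding, and positions are on GRCm38. Ddit4 (ENSMUSG00000020108) lies on the minus strand at chr10:59949669-59951834 and Ddit4l (ENSMUSG00000046818) on the plus strand at chr3:137621612-137628333. Sesn1 (ENSMUSG00000038332) is at chr10:41809935-41908424 and Sesn3 (ENSMUSG00000032009) at chr9:14275067-14333101. Mtor (ENSMUSG00000028991) is at chr4:148448611-148557683 and Rptor (ENSMUSG00000025583) at chr11:119602905-119899576. Rictor (ENSMUSG00000050310) is at chr15:6708379-6800401 and Deptor (ENSMUSG00000022419) at chr15:55112317-55259271. Tsc1 (ENSMUSG00000026812) is at chr2:28641228-28691167 and Tsc2 (ENSMUSG00000002496), on the minus strand, at chr17:24595816-24632630. In the RefSeq promoter table for GRCm38.p6, 9 of the 10 symbols had an entry, in 10 windows of 250 bases before the start (Sesn1 has 2). Since the treatment acts through a transcription factor, windows are shown of the 2 genes whose groups did not overlap in batch 1 (Mtor lower, Ddit4 higher). GC boxes (GGGCGG, or CCGCCC on the other strand) are in capitals. The Ddit4 window was cut at the first annotated base of the gene, and the Mtor window ends short of its gene start. The first is chr4:148448332-148448581 on the plus strand and the second chr10:59951835-59952020 on the minus strand. In batch 1, 9.86% of all tested genes did not overlap between DEX and control, and 7.15% between DEX + RU-486 and control.
Mtor: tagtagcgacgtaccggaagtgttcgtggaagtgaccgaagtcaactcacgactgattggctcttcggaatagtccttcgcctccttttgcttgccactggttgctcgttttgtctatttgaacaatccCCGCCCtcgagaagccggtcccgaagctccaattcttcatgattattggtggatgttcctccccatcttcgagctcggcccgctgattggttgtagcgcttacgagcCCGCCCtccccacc
Ddit4: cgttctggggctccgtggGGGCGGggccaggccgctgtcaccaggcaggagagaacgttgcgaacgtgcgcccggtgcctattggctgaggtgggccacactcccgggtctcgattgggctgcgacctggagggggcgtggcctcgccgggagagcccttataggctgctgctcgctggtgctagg
The hexamer AGAACA, read as TGTTCT on the opposite strand, is the unit of a glucocorticoid response element. It was in 0 of the 10 windows, and 16.1% of all 32851 windows of this length held it. The GC box was in 7 of the 10 windows and in 32.7% of all. The E-box CACGTG was in 0 of 10 and in 6.02% of all, and the FoxO site, GTAAACA or in reverse TGTTTAC, was in 0 of 10 and in 3.17% of all. These are matches of letters near the start, and sites further away were not searched.

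The genes differed widely in level. Exon length was that of all annotated transcripts of a gene merged, and which transcripts were expressed was not tested. The order of genes of near level may therefore depend on the annotation. Per kilobase of exon, Ddit4 was the highest, with 23.3 ± 6.88 CPM per kb (SD, n = 36 libraries; CPM is the count scaled to 1 M with TMM library sizes), above Tsc1 in 36 of 36 libraries and at the 94.4th percentile of the tested genes. Tsc1 (8.37 ± 0.837 CPM per kb) and Tsc2 (8.18 ± 0.612), the partners of the TSC complex, were close over all libraries. Tsc1 was the higher of the pair in 19 of 36, but their order differed between the batches. In the batch 1 controls Tsc2 had the higher mean (8.77 against 7.56 CPM per kb). In the 4 batch 2 controls of RNA integrity number 6 or above Tsc1 did (9.36 against 7.76). Mtor followed with 7.16 ± 1.14 CPM per kb, below Tsc2 in 33 libraries and above Sesn1 (4.29 ± 0.698) in 35. Sesn1 was above Sesn3 in 26 libraries. Sesn3 (3.75 ± 0.712) and Rptor (3.66 ± 0.557) were close over all libraries, with Sesn3 the higher in 18 of 36. Sesn3 had the higher mean in the batch 1 controls (4.48 against 3.63 CPM per kb). In the same 4 batch 2 controls Rptor did (4.35 against 4.07). Rictor (2.96 ± 0.777) was below Rptor in 32 libraries and above Deptor (2.46 ± 0.809) in 28. Ddit4l was by far the lowest, with 0.162 ± 0.157 CPM per kb, at the 12.3th percentile. Its 0 to 30 counts per library limit every statement on this gene, and it had 0 counts in 4 libraries, where 3 counts, the limit that a count of 0 allows, would be 0.0884 to 0.234 CPM.

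**Figure D1:**
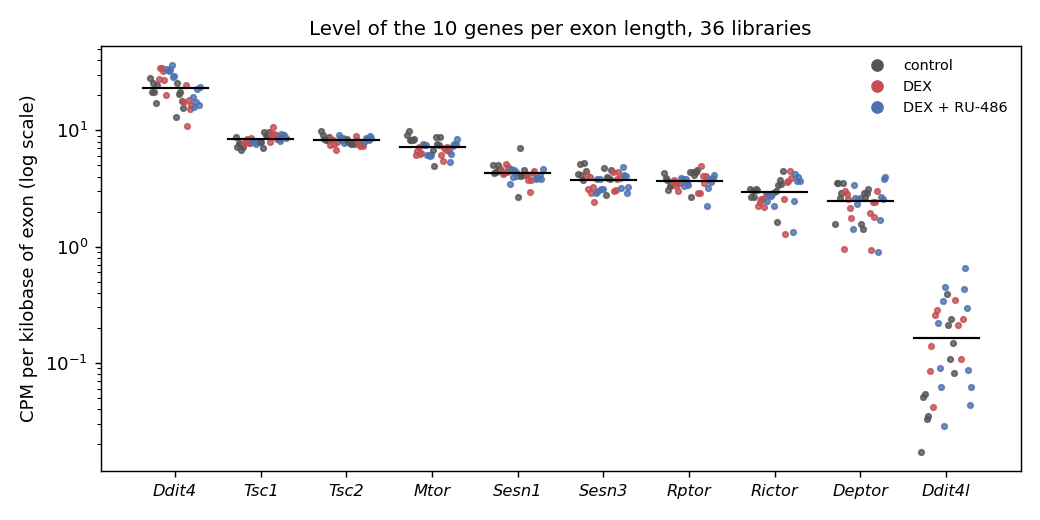
Level of each of the 10 genes in CPM per kilobase of exon on a log scale, with 1 point per library coloured by treatment and a line at the mean of 36 libraries; the 4 libraries with 0 counts of Ddit4l are not drawn. Ddit4 sits highest (mean 23.3), Ddit4l lowest (mean 0.162), and Tsc1 and Tsc2 overlap.

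The libraries were not alike in depth and RNA integrity. In batch 1 the control libraries held 24.2 to 82.4 M counts with an RNA integrity number (RIN) of 7.8 to 9.2, the DEX libraries 12.1 to 22.3 M with a RIN of 3.9 to 7.8, and the DEX + RU-486 libraries 17.4 to 26.7 M with a RIN of 5.6 to 7.9, and in that batch neither measure can be separated from the drugs given. In batch 2 each group held 2 libraries of RIN 1.4 to 2.7 and 4 of RIN 7.4 to 8.7, at 12.4 to 47.3 M counts. Neuron markers (8 genes, all detected in every library) summed to 2458 to 3219 CPM in the batch 1 controls, 1830 to 2797 in DEX and 2058 to 2820 in DEX + RU-486, and 5 of 8 were lower in DEX there at an adjusted p under 0.05. Oligodendrocyte lineage markers (7 genes, all detected in every library) summed to 59.8 to 275 CPM in the batch 1 controls, 463 to 2115 in DEX and 214 to 914 in DEX + RU-486, and 5 of 7 were higher in DEX. Also in DEX of batch 1, 3 of 6 astrocyte markers (17.1 to 32.2 CPM against 11.8 to 19.8 in control), 2 of 5 vascular markers (1.56 to 12.1 against 1.28 to 3.98) and 2 of 2 markers of dividing cells (7.82 to 57.6 against 2.03 to 12.2) were higher. In DEX + RU-486 of batch 1 against control, 4 of 8 neuron markers were lower, and 4 of 7 oligodendrocyte lineage, 2 of 6 astrocyte, 2 of 5 vascular and 2 of 2 dividing cell markers were higher. Of microglia markers 0 of the 3 tested and of fibroblast markers 0 of the 1 tested were called there, and their sums stayed at or below 1.36 and 2.53 CPM in the DEX and control libraries of batch 1. Of all tested genes, 19% were called in DEX and 15.4% in DEX + RU-486 against control in batch 1. In batch 2, 0 markers of these lists were called in either comparison with control. There 0% of all tested genes were called, so the 0 does not set the markers apart. Neuron markers summed to 2019 to 5603 CPM in the batch 2 controls, 2061 to 9067 in DEX and 2031 to 7257 in DEX + RU-486. Fewer cells of a type and less RNA per cell cannot be told apart in such libraries, and the part of the cell makeup in the results was not tested. DEX + RU-486 libraries 35 and 36 of batch 2 stood apart from the other 10 libraries of RIN 6 or above in that batch, with 21.7 to 23.3 CPM of Slc17a7 (a glutamatergic neuron marker) against 5.19 to 9.51 and 49.7 to 55.5 CPM of Gad1 (a GABAergic marker) against 128 to 165. The 6 batch 2 libraries of RIN under 3 also stood apart from these 10, with 11.2 to 17.5 CPM of Slc17a7 and 18.3 to 28.9 CPM of Gad1, so each value given for them below goes with RIN and with these markers alike. Of the 2 genes taken to check that the drug reached its receptor, Fkbp5 was at 16.4 ± 5.09 CPM in DEX and 17.4 ± 2.16 in control in batch 1 (n = 6 each; log2 fold change -0.05, SE 0.20, edgeR adjusted p = 0.887), and at 18.8 ± 5.94 and 16.9 ± 5.38 CPM in batch 2, so it was not shown to be higher in DEX in either batch. Tsc22d3 was at 12.5 ± 4.03 CPM in DEX and 8.01 ± 2.69 in control in batch 1 (log2 fold change 0.67, SE 0.22, edgeR adjusted p = 0.0351), and at 14.1 ± 3.16 and 14.7 ± 4.39 CPM in batch 2. In DEX + RU-486 Fkbp5 was at 13.7 ± 4.49 CPM in batch 1 and 14.8 ± 5.68 in batch 2, and Tsc22d3 at 12.1 ± 2.90 and 11.8 ± 3.02 CPM. With all libraries, 0 of the 2 passed in DEX + RU-486 against control, pooled or in either batch. In the libraries of RIN 6 or above, 1 of the 2 passed there as lower, both pooled (8.86% of all genes passed) and in batch 1 (13.5%). Against DEX 0 of the 2 passed in these libraries.

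With both batches in 1 edgeR quasi-likelihood fit and the batch as a covariate, 0 of the 10 genes passed an adjusted p of 0.05 in DEX against control, where 0.0246% of the 20355 tested genes did. An unadjusted p under 0.05 was reached by 2 of the 10, Mtor and Sesn3, both lower, against 16.9% of all tested genes. In DEX + RU-486 against control 0 of the 10 passed (0% of all), and 4 reached an unadjusted p under 0.05, Mtor and Sesn3 lower and Ddit4 and Ddit4l higher, against 10.8% of all. Between DEX + RU-486 and DEX 0 of the 10 passed (0% of all) and 0 reached an unadjusted p under 0.05 (2.68% of all). DESeq2, which gave Ddit4l no adjusted p against control, also passed 0 in these comparisons, with 3, 4 and 1 under an unadjusted p of 0.05. The share of all genes that DESeq2 put under that unadjusted p was not counted, so these counts have no background beside them. The median log2 fold change of the 10 was -0.10 in DEX against control, beside -0.01 over all tested genes, and -0.08 beside 0.02 in DEX + RU-486 against control. The comparisons with control share the 12 control libraries.

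In batch 1 alone, 3 of the 10 genes passed in DEX against control, 1 higher (Ddit4) and 2 lower (Mtor, Sesn3), where 19% of all tested genes passed. In DEX + RU-486 against the same 6 controls 4 passed, Ddit4 and Ddit4l higher and Mtor and Sesn3 lower, where 15.4% of all passed. Between DEX + RU-486 and DEX 0 passed (0% of all; edgeR and DESeq2 both gave 0 under an unadjusted p of 0.05, which edgeR gave for 4.09% of all). In batch 2 edgeR and DESeq2 passed 0 of the 10 in each of the 3 comparisons, with 0 at an unadjusted p under 0.05 by either tool, and edgeR passed 0% of all genes in each, with 2.19%, 0.894% and 2.18% at an unadjusted p under 0.05. With the 12 batch 2 libraries of RIN 6 or above, 0 of the 10 passed in any of the 3, where 0.565% of all genes passed in DEX against control, 0.00491% in DEX + RU-486 against control and 1.56% in DEX + RU-486 against DEX. Unadjusted p-values under 0.05 were then reached by 1, 1 and 4 of the 10, and by 17.2%, 7.55% and 19.3% of all genes. With the 28 libraries of RIN 6 or above of both batches, 2 of the 10 passed in DEX against control (19.7% of all) and 2 in DEX + RU-486 against control (8.86% of all), in both comparisons Mtor and Sesn3 and both lower. Between DEX + RU-486 and DEX 0 passed (0% of all), with 1 at an unadjusted p under 0.05 (8.93% of all).

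**Figure D2:**
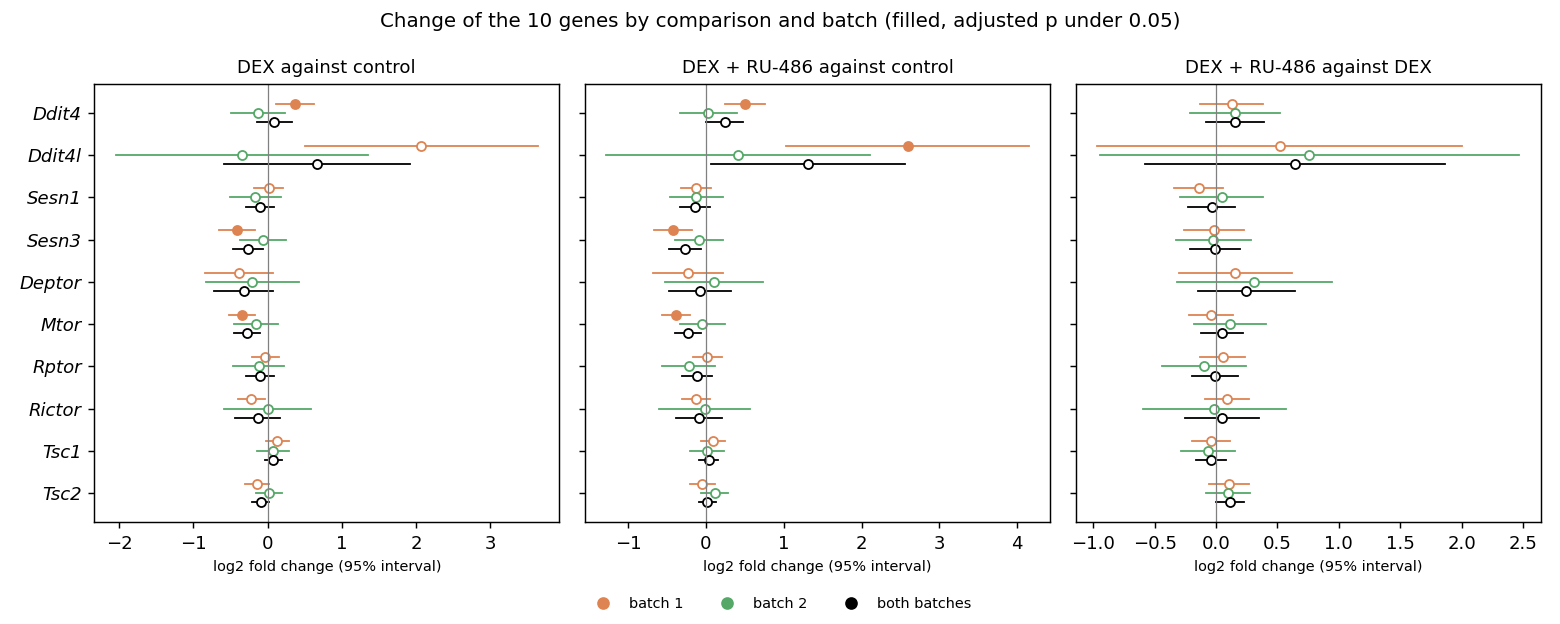
Log2 fold change of each gene in the 3 comparisons, with 95% intervals (1.96 SE), in batch 1, batch 2 and both batches; filled points passed an adjusted p of 0.05 over all tested genes. The filled points are all of batch 1: Ddit4, Sesn3 and Mtor in both comparisons with control, and Ddit4l in DEX + RU-486 against control.

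Mtor, the kinase itself, was lower in both treated groups of batch 1, and it was the only one of the 10 whose treated libraries did not overlap the controls in either comparison there. Its level was 82.6, 84.4 and 101 CPM (lowest, median, highest of 6) in the batch 1 controls, 61.7, 65.6 and 77.6 CPM in DEX and 61.2, 62.4 and 75.6 CPM in DEX + RU-486. Every treated library of batch 1 was thus below every control. Such a gap between DEX and control, in either direction, was seen in 9.86% of all tested genes, and for DEX + RU-486 and control in 7.15%. On the log2 scale the change was -0.34 (SE 0.09, adjusted p = 0.0115) in DEX and -0.38 (SE 0.09, adjusted p = 0.00835) in DEX + RU-486, against the same controls. Leaving out any of the 18 libraries kept both calls, with adjusted p-values of 0.00727 to 0.0299 and 0.00444 to 0.025. With the counts thinned to the shallowest library of the batch the values were -0.32 (adjusted p = 0.0243) and -0.37 (adjusted p = 0.0136), and with the RIN as a covariate -0.43 (adjusted p = 0.0445) and -0.45 (adjusted p = 0.0251).

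In batch 2 the 4 control libraries of RIN 6 or above had 87.8, 77.0, 75.8 and 88.7 CPM of Mtor. The 4 DEX libraries had 70.8, 68.9, 72.8 and 67.6 CPM, and the 4 DEX + RU-486 libraries 74.2, 77.6, 77.2 and 84.9 CPM. The DEX libraries were all below the controls, a gap seen in 11.5% of all genes in these libraries, and all below DEX + RU-486, seen in 8.4%, whereas DEX + RU-486 overlapped the controls. None of the 3 log2 fold changes passed: -0.22 (SE 0.07, adjusted p = 0.141) for DEX against control, -0.06 (SE 0.07, adjusted p = 0.927) for DEX + RU-486 against control and 0.16 (SE 0.07, adjusted p = 0.232) for DEX + RU-486 against DEX. Without libraries 35 and 36 the latter pair was -0.10 (SE 0.09) and 0.11 (SE 0.09). The 6 batch 2 libraries of RIN under 3 had lower Mtor, 58.4 ± 6.81 CPM against 76.9 ± 6.98 in the 12 others, and with all 18 libraries the DEX change was -0.16 (SE 0.15, adjusted p = 1). Over both batches, the log2 fold change of Mtor in DEX was -0.34 (SE 0.07, adjusted p = 0.000742) in the 28 libraries of RIN 6 or above, and the call held without any single library (adjusted p at most 0.0032). In DEX + RU-486 against control it was -0.25 (SE 0.07, adjusted p = 0.0159), a call lost without control library 2 (adjusted p = 0.0577). In all 36 libraries the pooled changes were -0.28 (SE 0.09, adjusted p = 0.108) and -0.23 (SE 0.09, adjusted p = 0.324), and DEX + RU-486 differed from DEX by 0.05, with a 95% interval of -0.12 to 0.22.

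**Figure D3:**
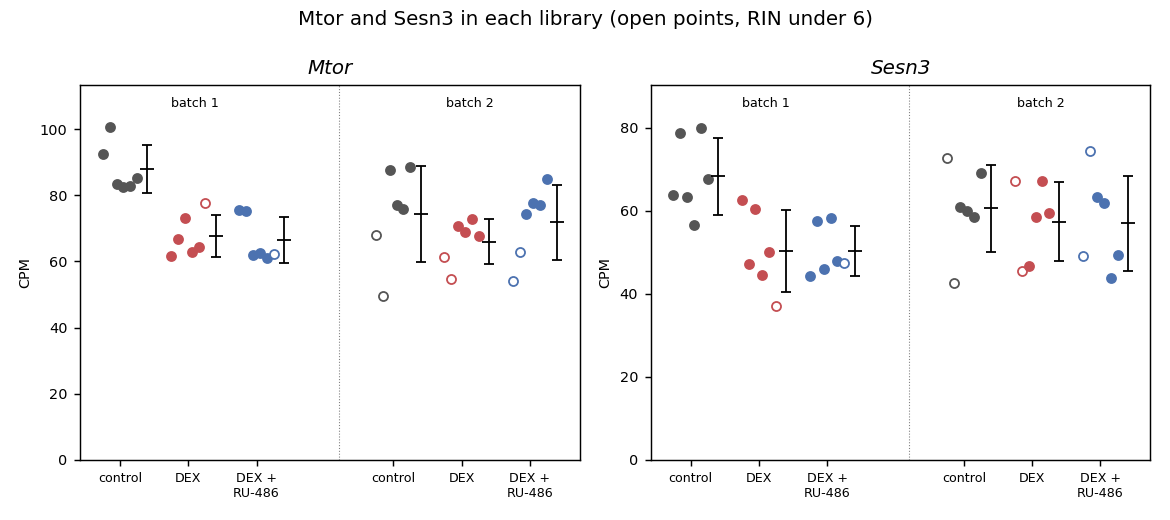
Mtor and Sesn3 in each library in CPM, by batch and treatment, with the mean and SD of each group of 6 at its right; open points are libraries of RIN under 6. In batch 1 the treated libraries lie below the controls for Mtor and overlap them for Sesn3, and in batch 2 the open points of Mtor average 58.4 CPM and the filled points 76.9 CPM.

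The sestrins are stress-induced inhibitors of complex 1. Sesn3 was at 56.6, 65.8 and 80.0 CPM (lowest, median, highest) in the batch 1 controls, 37.0, 48.7 and 62.7 CPM in DEX and 44.3, 47.6 and 58.2 CPM in DEX + RU-486. The groups overlapped. On the log2 scale the changes were -0.41 (SE 0.12, adjusted p = 0.0247) and -0.42 (SE 0.12, adjusted p = 0.0242). The first call was lost without DEX library 12, which had the lowest Sesn3 of the group and a RIN of 3.9 (-0.33, adjusted p = 0.0572), and the second without DEX + RU-486 library 15, control library 2 or control library 5 (adjusted p up to 0.0548). Both were lost with upper-quartile factors (adjusted p = 0.0523 and 0.0568) and with the RIN as a covariate (-0.20 and -0.26, adjusted p = 0.516 and 0.311). In batch 2 Sesn3 was at 42.6, 60.5 and 72.7 CPM in control, 45.5, 58.9 and 67.2 in DEX and 43.9, 55.7 and 74.3 in DEX + RU-486, with changes of -0.06 (SE 0.16) and -0.08 (SE 0.16). In the 28 libraries of RIN 6 or above of both batches the changes were -0.25 (SE 0.09, adjusted p = 0.0455) and -0.33 (SE 0.09, adjusted p = 0.0216), and leaving out 1 library ended these calls in 16 and in 4 of the 28 cases.

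Sesn1, a sestrin known as a p53 and FoxO target, was at 17.1, 18.0 and 20.2 CPM in the batch 1 controls, 16.8, 17.8 and 20.3 in DEX and 13.7, 16.8 and 18.5 in DEX + RU-486. In batch 2 it was at 10.6, 16.6 and 27.9 CPM in control, and both ends of that range were libraries of RIN under 3. DEX had 11.7, 15.6 and 17.9 CPM there and DEX + RU-486 15.2, 15.4 and 18.5 CPM. The groups overlapped in both batches, and the pooled changes were -0.10 (SE 0.10) in DEX and -0.14 (SE 0.10) in DEX + RU-486, neither past the threshold (adjusted p = 0.644 and 0.631).

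Ddit4, which encodes REDD1, moved the other way from Mtor in batch 1. Its level was 30.3, 40.6 and 49.6 CPM in the batch 1 controls, 35.4, 52.6 and 60.9 CPM in DEX and 50.9, 57.5 and 63.7 CPM in DEX + RU-486. DEX overlapped the controls, while every DEX + RU-486 library was above every control. Such a gap, in either direction, was seen in 7.15% of all tested genes. On the log2 scale the change was 0.37 (SE 0.13, adjusted p = 0.0472) in DEX and 0.50 (SE 0.13, adjusted p = 0.0139) in DEX + RU-486. The DEX call lay near the threshold and was lost in 14 of 18 cases of leaving out 1 library (adjusted p = 0.0118 to 0.149, the smallest without DEX library 12, at 0.46), whereas the DEX + RU-486 call was kept in all 18. With the RIN as a covariate the changes were 0.52 (adjusted p = 0.0904) and 0.62 (adjusted p = 0.0349). In batch 2 Ddit4 was at 22.7, 33.9 and 44.4 CPM in control, 18.9, 29.7 and 43.1 in DEX and 28.1, 32.2 and 41.1 in DEX + RU-486, so no group stood apart, and the changes were -0.13 (SE 0.19) and 0.03 (SE 0.19). The controls of batch 1 overlapped those of batch 2.

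The DEX effect on Ddit4 differed between the batches by -0.49 (batch 2 minus batch 1, SE 0.23, adjusted p = 0.359) in all 36 libraries. In the 28 libraries of RIN 6 or above the difference was -0.73 (SE 0.20, adjusted p = 0.0303), from 0.48 (SE 0.12, adjusted p = 0.00621) in batch 1 and -0.30 (SE 0.16, adjusted p = 0.336) in batch 2. The 4 DEX libraries behind the latter value had 18.9, 32, 26.8 and 29 CPM and their 4 controls 36.1, 37.4, 31.6 and 27.4 CPM. It was the only one of the 10 genes whose effect differed between batches at an adjusted p under 0.05, in 1 of the 3 comparisons, where 4.25% of all genes did. In the same libraries 0 of 10 differed in DEX + RU-486 against control (1.91% of all), with 4 at an unadjusted p under 0.05 (15.8% of all), and 0 of 10 in DEX + RU-486 against DEX (0.00491% of all), with 0 (11.2% of all). In all 36 libraries 0 of the 10 differed in each comparison, where 0.172%, 0.0835% and 0% of all genes did, with 1, 1 and 0 at an unadjusted p under 0.05 (12.9%, 11.9% and 2.29% of all). Batch, RIN and the cell makeup named above vary together, and which of them goes with the difference cannot be told apart.

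**Figure D4:**
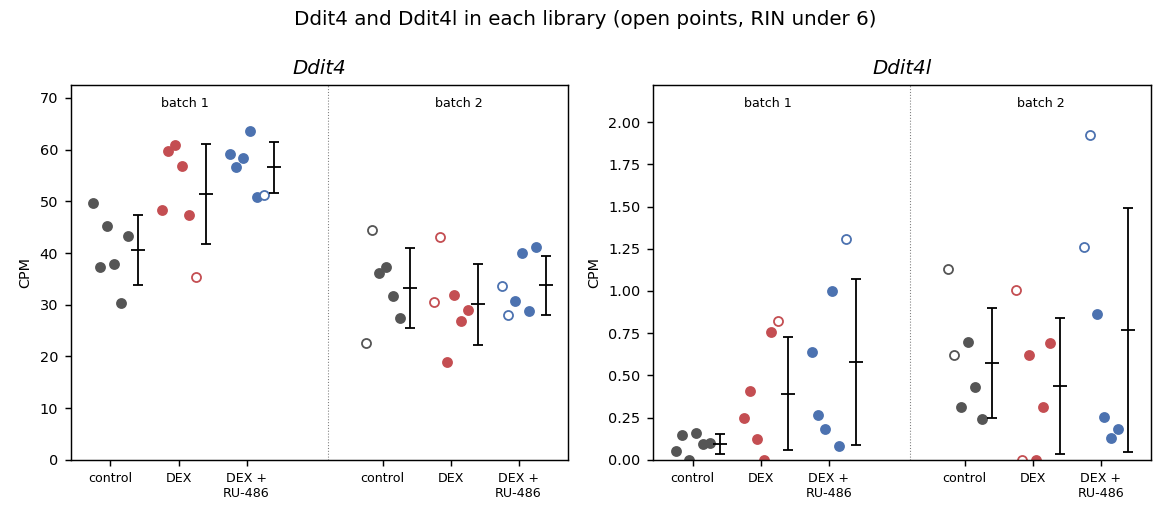
Ddit4 and Ddit4l in each library in CPM, by batch and treatment, with the mean and SD of each group of 6 at its right; open points are libraries of RIN under 6. The batch 1 DEX + RU-486 libraries of Ddit4 (50.9 to 63.7 CPM) lie above all batch 1 controls, and Ddit4l stays below 2 CPM throughout. These 2 groups were apart, in either direction, in 7.15% of all tested genes.

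Ddit4l encodes REDD2 and is one of the genes for which the study designed qPCR primers. The study ran qPCR on markers of chronic stress in its treated cultures and reported them as dysregulated. Those qPCR values were not compared here. The pair is shown because it fixes which transcripts an amplicon would report.
Ddit4l_F: ACAACATAATCCCAGTAGTCGAA
Ddit4l_R: GAAACAGAGCCGTTGACCAT
In the GENCODE transcripts the primer named F matched the antisense strand and the one named R the sense strand. R lay at chr3:137624165-137624184, in exon 2 of 3 of transcript Ddit4l-201, and F at chr3:137625968-137625990, in the coding part of exon 3, so the product spans an intron. Both matched Ddit4l-201 and Ddit4l-202 and R alone Ddit4l-203, and neither matched a transcript of another gene without mismatch. In the RNAseq libraries Ddit4l was at 0, 0.0984 and 0.158 CPM (lowest, median, highest) in the batch 1 controls, from 0 to 10 counts. It was at 0, 0.326 and 0.822 CPM in DEX and 0.0825, 0.451 and 1.31 CPM in DEX + RU-486. The treated libraries reached higher values but overlapped the controls. On the log2 scale the change was 2.07 (SE 0.80, adjusted p = 0.074) in DEX and 2.59 (SE 0.79, adjusted p = 0.0308) in DEX + RU-486. The latter call was lost in 7 of 18 cases of leaving out 1 library (adjusted p up to 0.0829), in the libraries of RIN 6 or above (2.23, adjusted p = 0.0642) and with the RIN as a covariate (1.89, adjusted p = 0.282). With DESeq2 the DEX change also passed (2.16, adjusted p = 0.0299). The highest Ddit4l of DEX and of DEX + RU-486 in batch 1 was in DEX library 12 (RIN 3.9) and in DEX + RU-486 library 18 (RIN 5.6), the least intact library of each group. In batch 2 the 6 libraries of RIN under 3 had 0.99 ± 0.645 CPM and the 12 others 0.394 ± 0.266 CPM. The batch 2 controls, at 0.24, 0.525 and 1.13 CPM, were all above the batch 1 controls, whose values rest on 0 to 10 counts. The share of all genes with such a gap between the controls of the batches was not counted. DEX in batch 2 was at 0, 0.467 and 1.00 CPM and DEX + RU-486 at 0.127, 0.559 and 1.92 CPM, with changes of -0.35 (SE 0.87) and 0.41 (SE 0.87).

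Deptor, the inhibitory partner of both complexes, varied more within groups than between them. It was at 13.9, 28.6 and 31.4 CPM in the batch 1 controls, 8.40, 20.8 and 26.5 CPM in DEX and 12.6, 22.9 and 30.1 CPM in DEX + RU-486. The lowest library of each of these groups was number 1, 7 and 13, with RIN values of 7.8, 6.2 and 6.6. In batch 2 it was at 12.6, 24.7 and 27.6 CPM in control, 8.34, 19.3 and 26.5 in DEX and 7.96, 23.3 and 35.02 in DEX + RU-486. There it ran at 12.5 ± 3.71 CPM in the 6 libraries of RIN under 3 and 25.3 ± 5.20 CPM in the 12 others. All groups overlapped, and the pooled changes were -0.32 (SE 0.20, adjusted p = 0.429) in DEX and -0.08 (SE 0.20, adjusted p = 0.928) in DEX + RU-486. The highest pair of Deptor values in batch 2, 33.52 and 35.02 CPM, was in DEX + RU-486 libraries 35 and 36. In the batch 2 libraries of RIN 6 or above, DEX + RU-486 against DEX was 0.44 (SE 0.15, adjusted p = 0.128) with them and 0.13 (SE 0.15, adjusted p = 0.896) without them.

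Rictor, which defines complex 2, was at 45.2, 51.4 and 53.1 CPM in the batch 1 controls, 37.1, 42.2 and 47.6 in DEX and 37.7, 46.5 and 48.5 in DEX + RU-486. The DEX change was -0.22 (SE 0.09, adjusted p = 0.0942). The only DEX library within the range of the controls was number 12, of RIN 3.9. In the batch 1 libraries of RIN 6 or above, which leave it out, DEX and control did not overlap. Such a gap, in either direction, was seen in 11.8% of all genes there. The change in these libraries was -0.24 (SE 0.08, adjusted p = 0.0469), where 19% of all tested genes passed. The batch 2 libraries of RIN 6 or above gave 0.07 (SE 0.09, adjusted p = 0.766). In batch 2 Rictor was at 21.8 to 50.8 CPM in the 6 libraries of RIN under 3. The 12 others had at least 56.9 CPM, a gap that 18.8% of all genes showed. Those 6 libraries also had lower Gad1 than the 12 others, and higher Slc17a7 than all of the 12 but libraries 35 and 36. Rptor, the scaffold of complex 1, was at 41.7, 47.8 and 57.9 CPM in the batch 1 controls, 40.5, 47.6 and 50.2 in DEX and 44.9, 49.4 and 52.5 in DEX + RU-486. The pooled changes were -0.10 (SE 0.10) in DEX and -0.11 (SE 0.10) in DEX + RU-486. In batch 2 the 4 controls of RIN 6 or above had 59.1, 55.4, 58.6 and 61.4 CPM of Rptor and the 4 DEX + RU-486 libraries 51.6, 48.8, 51.9 and 55.2 CPM. The latter were all lower, a gap seen in 6.91% of all genes in these libraries, and the change of -0.16 (SE 0.09, adjusted p = 0.719) did not pass.

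Tsc1 and Tsc2, whose products form the brake on Rheb, did not pass the test in any comparison. Tsc1 was at 80.1, 87.1 and 104 CPM in the batch 1 controls, 92.2, 93.5 and 102 in DEX and 89.9, 93.9 and 96.1 in DEX + RU-486, and the pooled changes were 0.08 (SE 0.06) and 0.04 (SE 0.06). In batch 2 it was at 83.6, 107 and 115 CPM in control, 94.6, 108 and 126 in DEX and 95.7, 104 and 110 in DEX + RU-486. Tsc2 was at 78.8, 82.8 and 94.4 CPM in the batch 1 controls, 64.5, 75.4 and 80.3 in DEX and 75.2, 80.8 and 87.2 in DEX + RU-486, with pooled changes of -0.09 (SE 0.06) and 0.02 (SE 0.06). In the batch 2 libraries of RIN 6 or above, Tsc2 was at 75.4, 73.3, 76.2 and 73.7 CPM in control and at 73.3, 71.2, 72.2 and 71.0 CPM in DEX. The 4 DEX + RU-486 libraries, at 81.1, 79.5, 86.5 and 83.4 CPM, were above all of these, gaps seen in 8.4% of all genes against DEX and 6.91% against control. The change against DEX was 0.20 (SE 0.06, adjusted p = 0.0875) and against control 0.16 (SE 0.06, adjusted p = 0.588). Without libraries 35 and 36 these were 0.15 (SE 0.07) and 0.12 (SE 0.07).

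**Figure D5:**
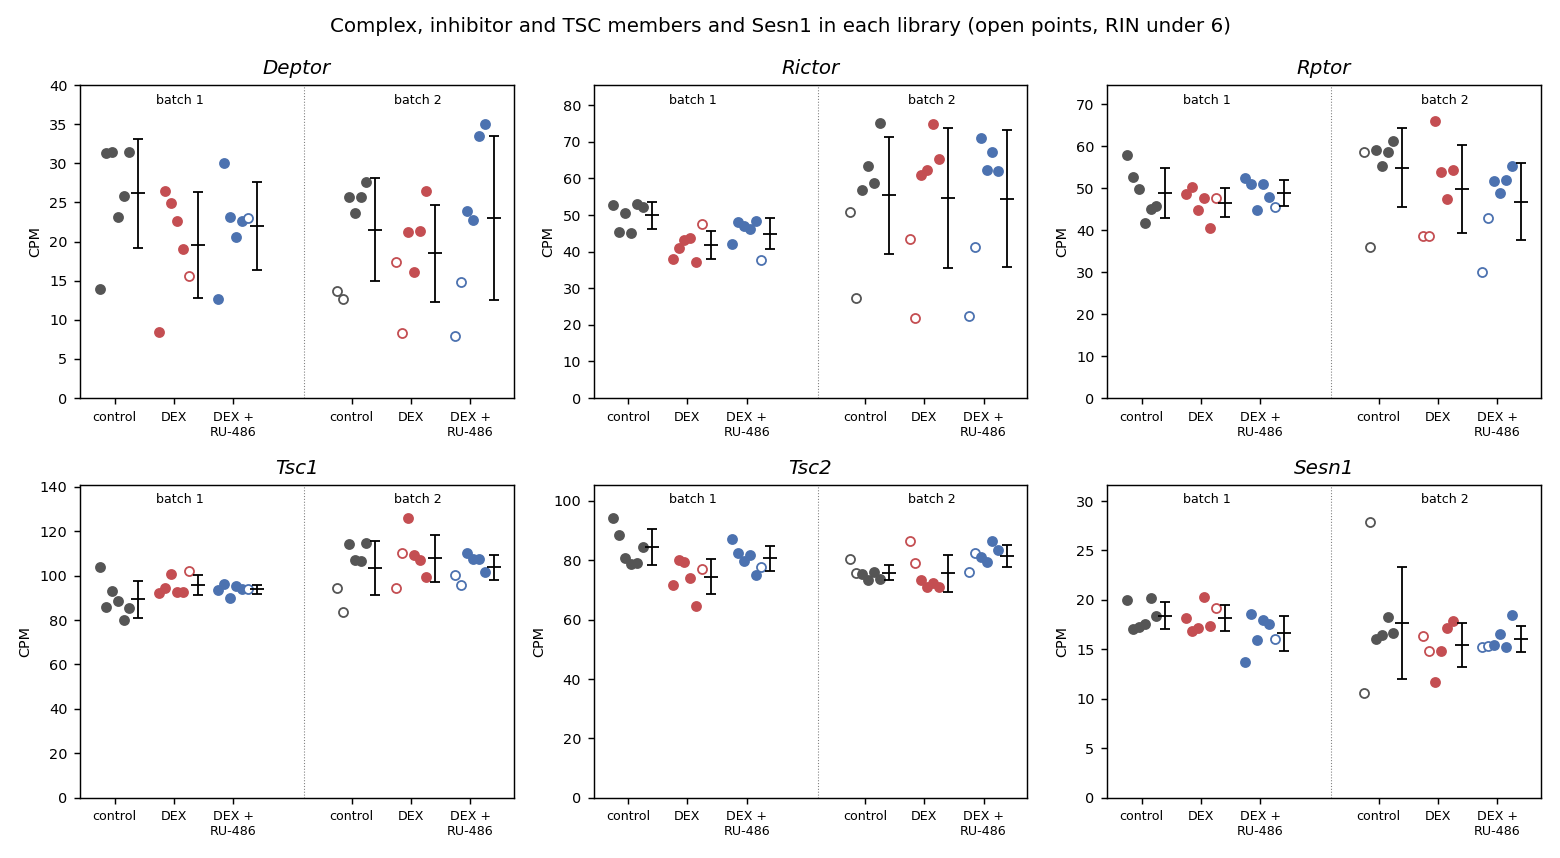
Deptor, Rictor, Rptor, Tsc1, Tsc2 and Sesn1 in each library in CPM, by batch and treatment, with the mean and SD of each group of 6 at its right; open points are libraries of RIN under 6. In batch 2 the open points of Rictor (21.8 to 50.8 CPM) lie below all filled points, and Tsc1 and Tsc2 spread least relative to their means.

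Genes around these 10 in the pathway were taken from 4 lists. In all 36 libraries 0 genes of the lists passed in any comparison. Of all tested genes, 0.0246% passed there in DEX against control and 0% in each of the others. In the 18 libraries of batch 2 also 0 passed, where 0% of all genes did in each comparison, so the 0 does not set the lists apart. In batch 1 DEX against control, where 19% of all tested genes passed, 1 of 7 partners of the mTOR complexes was higher and 1 lower. The lower one was Mapkap1, a subunit of complex 2, at a log2 fold change of -0.38 (SE 0.11). Among 16 genes upstream of TSC and Rheb, 1 was higher and 5 lower, with a median log2 fold change of -0.18 beside 0.06 over all tested genes. Among the lower ones were Pdpk1, which phosphorylates AKT, at -0.42 (SE 0.13), and Prkaa1, the catalytic subunit of AMPK, at -0.48 (SE 0.14), whereas Irs2, an adaptor of the insulin receptor, was higher at 0.44 (SE 0.14). In the amino acid arm 0 of 28 tested genes were higher and 2 lower, Mios of the GATOR2 complex at -0.47 (SE 0.12) and Castor2, a relative of the arginine sensor, at -0.58 (SE 0.11). Castor1 was below the count filter and not tested.

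Among 16 targets of mTOR 3 were higher and 3 lower in DEX of batch 1, again beside 19% of all genes called. Eif4ebp1, the translation repressor that complex 1 phosphorylates, rose by 0.95 (SE 0.30), and Rps6kb2, an S6 kinase, by 0.53 (SE 0.14). Eif4e, the cap-binding protein that Eif4ebp1 holds back, was lower at -0.60 (SE 0.11), as were the autophagy kinases Ulk1 (-0.41, SE 0.10) and Ulk2 (-0.52, SE 0.12). The genes of these lists named so far had adjusted p-values of 0.0014 to 0.028. Further calls, named after their values were seen, were Igf1r (-0.30, SE 0.10), Prr5l (2.35, SE 0.80) and Tfeb (2.23, SE 0.78). In DEX + RU-486 against the same controls, where 15.4% of all genes passed, the counts were 0 higher and 1 lower of 7 complex partners, 2 and 1 of 16 upstream genes, 1 and 4 of 28 in the amino acid arm, and 1 and 3 of 16 targets. Named there by the same rule were Mapkap1 (-0.47, SE 0.11), Irs2 (0.44, SE 0.14), Castor2 (-0.75, SE 0.11), Eif4ebp1 (1.21, SE 0.30), Eif4e (-0.61, SE 0.11), Ulk1 (-0.31, SE 0.10) and Ulk2 (-0.49, SE 0.12). Further named were Irs1 (0.67, SE 0.19), the Rag GTPase Rragc (-0.44, SE 0.15), the Ragulator subunit Lamtor5 (-0.68, SE 0.20), and Sesn2, another sestrin, which was higher (1.08, SE 0.36, adjusted p = 0.0441). Mios (-0.35, SE 0.12) was also lower, and was named after its value was seen. Sesn2 had a value in DEX (1.02, SE 0.36) that did not pass (adjusted p = 0.0508), so that in batch 1 Sesn2 and Sesn3 had opposite signs. In the 12 batch 2 libraries of RIN 6 or above, Sesn2 was the only call of the 4 lists, in DEX + RU-486 against DEX (0.55, SE 0.13, adjusted p = 0.047; 1.56% of all genes passed), a call lost without libraries 35 and 36 (0.35, SE 0.14, adjusted p = 0.599). In the 28 libraries of RIN 6 or above of both batches, where 19.7% of all genes passed, DEX gave 1 higher and 1 lower complex partner, 0 and 6 upstream genes, 0 and 3 of the amino acid arm, and 2 and 3 targets.

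Over the 28 libraries of RIN 6 or above, with batch means removed, the genes whose log2 CPM was most alike that of Deptor were Tenm2 (Pearson r = 0.917), Vangl2 (r = 0.908) and Adamts18 (r = 0.907). For Ddit4 they were Arap3 (r = 0.811), Dhrs7 (r = 0.793) and Irf2bp2 (r = 0.787), for Sesn1 Lrrc40 (r = 0.771), A130010J15Rik (r = 0.758) and Golt1b (r = 0.749), and for the sparsely counted Ddit4l D17H6S53E (r = 0.698), Oser1 (r = 0.67) and Map10 (r = 0.645). These values describe likeness across libraries that also share treatment, depth and cell makeup. Between the 10 genes themselves the highest r was that of Mtor and Tsc2 (0.611), followed by Mtor and Sesn3 (0.565), and the lowest that of Sesn1 and Tsc1 (-0.427).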

How the data were processed

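RNAseq was run on 36 libraries of mouse cortical cultures. The submitters' processing notes name GRCm38, HISAT2 2.1.0 (alignment) and Subread 1.5.0-p2 (assignment to genes), and the table the authors deposited holds whole-number counts per gene and library with no normalization. The labels name a poly(A) preparation, while the study's methods describe a total RNA library and also an alignment to a composite genome; which alignment the table holds is not given in the sources used here. Of its 55492 rows, 5 named no mouse gene and were left out, and 55227 matched GENCODE M21, from which symbols, positions and exon lengths were taken.

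The counts were tested with the edgeR 4.0.16 quasi-likelihood test (R 4.3.3, TMM factors) for genes with a mean count above 5 over the 36 libraries, with p-values adjusted by Benjamini-Hochberg over all tested genes and a threshold of 0.05. All 3 groups entered 1 model with batch as covariate, each batch was also fitted alone, and the difference between batches was tested as a batch by treatment term. SE values are the log2 fold change divided by the root of the F statistic, and 95% intervals are 1.96 SE. The procedure was tested on simulated data. Alternatives were DESeq2 1.42.0, upper-quartile factors, other filters, no batch term, only the compared groups, RIN as covariate and the libraries of RIN 6 or above. Thinned counts, RIN as covariate within batch 1, leaving out libraries 35 and 36 and leaving out each library in turn were added after seeing the data. Depth was 12.1 to 82.4 M counts per library, so precision is limited by the spread between libraries for all members but Ddit4l.

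The members and the gene lists were chosen with earlier results of these data known. Named were all members, the genes of the pathway lists with an adjusted p under 0.05 in a pooled or within-batch comparison (at most 12 per comparison, smallest p first), the 2 receptor target genes, and, for Ddit4, Ddit4l, Sesn1 and Deptor, the 3 genes most alike in log2 CPM (prior count of 2) among those of mean CPM above 1. Some genes of the lists that the rule names are not reported here. Slc17a7 and Gad1 were named after their values were seen. Promoter sequences are those of RefSeq.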

Additional observations from a re-analysis of the deposited data

Results flagged for a closer look

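Among 60 groups of 6 libraries (10 genes in 6 groups), 2 held a library farther from the others than Dixon's 95% limit, and chance flags about 1 in 20 groups. In the batch 1 controls, library 1 had 13.9 CPM of Deptor while the 5 others lay between 23.2 and 31.4 CPM, with a RIN of 7.8, the lowest of that group. In the batch 2 controls, library 20 had 36.1 CPM of Rptor while the 5 others lay between 55.4 and 61.4 CPM, and its RIN was 1.8. The change of Ddit4 in DEX against control differed between the batches in the libraries of RIN 6 or above, by -0.73 on the log2 scale (batch 2 minus batch 1, SE 0.20, edgeR adjusted p = 0.0303). The 5 batch 1 DEX libraries were compared with 6 controls and the 4 batch 2 DEX libraries with 4.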

How the results depend on the processing

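Of the log2 fold changes of the 10 genes under the alternatives, 522 kept their direction and their side of the threshold, 8 no longer passed it, 6 passed it newly and 31 changed sign. None of those 31 passed it, nor did their values before. Libraries of RIN 6 or above raised the pooled count of members called, 0 in all libraries, to 2 for either treatment against control, and the count whose DEX change differed between batches to 1, also 1 without libraries 35 and 36. RIN as a covariate in batch 1 left 1 member called in DEX (Mtor) and 2 in DEX + RU-486 (Mtor, Ddit4). The main fits of batch 1 passed 3 and 4 members, beside 19% and 15.4% of all tested genes. The shares of all genes with RIN as a covariate or with 1 library left out are not given here. Leaving out 1 library in batch 1 gave 2 to 3 calls in DEX and 2 to 4 in DEX + RU-486. In DEX + RU-486 the fewest came without control library 2 or 5. In DEX many omissions gave the fewest, since the Ddit4 call was lost in 14 of 18 cases. The cause of these changes was not tested.

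These log2 fold changes had the opposite sign to the value before. With RIN beside batch, Rictor in DEX was 0.024, Deptor in DEX + RU-486 0.030 and Rictor in DEX + RU-486 against DEX -0.026. In the pooled libraries of RIN 6 or above, Rptor in DEX + RU-486 against DEX was 0.0092. Without libraries 35 and 36, pooled Tsc2 in DEX + RU-486 was -0.0056, and against DEX Sesn3 was 0.032, Mtor -0.016 and Rictor -0.019. In batch 1, Rptor in DEX was 0.00020 with DESeq2 and 0.038 with upper-quartile factors, Tsc2 in DEX + RU-486 0.033 with the latter, Mtor against DEX 0.021 at RIN 6 or above, and with RIN as covariate Deptor was 0.079 and Rptor -0.038 in DEX + RU-486. In batch 2 at RIN 6 or above, Tsc2 in DEX was -0.039, in DEX + RU-486 Ddit4l was -0.23, Rictor 0.061 and Tsc1 -0.040, and Ddit4l against DEX was -0.22. In batch 2 without libraries 35 and 36, in DEX + RU-486 Ddit4 was -0.00065, Sesn3 0.038 and Deptor -0.30, and against DEX Sesn3 was 0.10 and Deptor -0.095. With both restrictions, Tsc2 in DEX was -0.037, in DEX + RU-486 Sesn3 was 0.021, Deptor -0.13, Rictor 0.082 and Tsc1 -0.013, and against DEX Sesn3 was 0.11 and Rictor 0.015.

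No paired analysis was made, because the groups share no replicate numbers: the labels number the libraries 1 to 36. In batch 2 the libraries of RIN under 3 were numbers 19, 20, 25, 26, 31 and 32, the lowest numbers of each group. A block by position within the group was not fitted, and whether that order marks shared preparations was not tested. Depth and RIN varied with the treatment in batch 1, so their part in a batch 1 change cannot be told apart from that of the treatment. Ddit4l had 0 to 30 counts per library. It was left out where 10 counts in every library were required, and DESeq2 gave it no adjusted p against control in the pooled fit.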
